A study of Drosophila melanogaster with 21 samples.

Results

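The cuticle protein genes of Drosophila melanogaster that carry the symbols Cpr, Lcp or Twdl were followed in larval eye-antennal discs of 7 genotypes, measured on 21 arrays. A gene was taken when its symbol was Cpr or Lcp followed by a digit, or Twdl followed by a letter, and when a probe set of the array named it alone. The rule gave 97 genes of the 11982 genes with such a probe set, of which 66 were Cpr, 7 Lcp and 24 Twdl genes. The current RefSeq annotation holds 113 genes with these names, and 16 of them had no probe set of their own.

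The insect cuticle is an extracellular coat of chitin fibres set in protein, secreted at the apical face of epidermal cells. Most Cpr and Lcp proteins share the Rebers-Riddiford region, which binds chitin, and the Lcp proteins were first isolated from larval cuticle. The Tweedle (Twdl) proteins are a separate family of cuticle proteins, and dominant mutations in some of them make the body short and squat. The genes of these families lie in clusters and are switched on at set stages around the moults, under the control of the steroid hormone ecdysone. The eye-antennal disc forms the adult eye, antenna and head capsule, and its epithelium secretes adult cuticle only after pupariation. For most single members no role beyond that of the family is stated here.

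All discs came from late larvae of the w1118 background at day 5 after egg deposition. They were mosaics made with *ey-FLP*, so each array measured clones together with the unmarked tissue around them, and fewer cells of a type and less RNA per cell cannot be told apart. The FRT control had clones with neither the mutation nor any of the overexpressed genes listed next. The *ab* discs had clones that overexpressed Abrupt (*ab*), a BTB-zinc finger transcription factor, and the *scrib-*+*ab* discs had clones that overexpressed *ab* and were mutant for the polarity gene scribble (*scrib*). The other 4 groups also had *scrib* mutant clones, with activated Ras (RasV12, *scrib-*+*RasACT*, here Ras tumours) or activated Notch (NotchICD, *scrib-*+*NACT*, here Notch tumours). Each of these was also made with *bskDN*, a version of Basket, the Drosophila JNK, that blocks the kinase (Ras+*bskDN* and Notch+*bskDN*). The labels describe the discs of all 5 *scrib* mutant groups as tumours and those of the control and *ab* as tumour-free. Each group had 3 arrays, and the labels do not say whether these came from separate collections of larvae.

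Levels are GCRMA signals on the log2 scale, with a floor of 2.17, and are compared between groups for the same gene only. A gene was called changed when limma gave an adjusted p under 0.05 and a log2 difference over 1 in size, with p-values adjusted over all 18769 probe sets. Each array had 7296 to 7854 probe sets at 5 log2 or more, a round level used here to mark clear signal. The *bsk* probe set read 15.75 to 15.82 on the *bskDN* arrays and 10.79 to 12.02 on the others, and the annotation used here names no probe set for *ab*, N or *Ras85D*. The eye gene ey read 9.15 or more and the antennal gene *Dll* 8.04 or more on every array. Against the control, however, 3 of 9 eye and 2 of 6 measured antennal disc markers were called lower in *ab* and 7 and 4 in *scrib-*+*ab*. The counts were 4 and 4 in Ras and 3 and 4 in Notch discs. They were 5 and 1 in Ras+*bskDN* and 5 and 4 in Notch+*bskDN* discs. No eye marker was called higher than in the control. Antennal markers called higher were *ct* (2.55), *Dll* (1.73) and *al* (1.52) in *ab*. In *scrib-*+*ab* *ct* (2.00) and *Dll* (1.33) were higher, and in Ras+*bskDN* *al* (2.07). The part of these eye and antennal markers in the results was not tested. The 6 *ab* and *scrib-*+*ab* arrays stood apart from the other 15, the FRT control included: their spiked-in control RNAs read 2.20 to 2.23 against 6.31 to 8.94. Their difference between 5′ and 3′ GAPDH probes was -3.69 to -2.20 against -0.67 to -0.29. In the comparisons of *ab* and *scrib-*+*ab* with the FRT control, genotype and this difference between sets of arrays cannot be told apart, and its part in those results was not tested.

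Most cuticle protein genes were silent or near silent in these discs. In 31 of the 97 the signal stayed within 0.1 of the floor on all 21 arrays, and in another 35 it passed the floor but never reached 5 log2. Of all 18769 probe sets tested, 6484 also stayed within 0.1 of the floor on all 21 arrays, so silence at the floor does not set the members apart. The other 31 genes reached 5 log2 on at least 1 array (17 Cpr, 5 Lcp and 9 Twdl), which is 32% of the members against 46.5% of all probe sets tested. Of these, 21 (14 Cpr, 5 Lcp and 2 Twdl) reached it on all arrays of at least 1 group. Only 5 genes did so on all 21 arrays, namely *Cpr51A*, *Cpr49Ac*, *Cpr66D*, *Cpr78E* and *TwdlE*. *Cpr66D* encodes a protein known from the corneal lens of the adult eye. The other members at this level were confined to some groups or arrays.

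**Figure D1:**
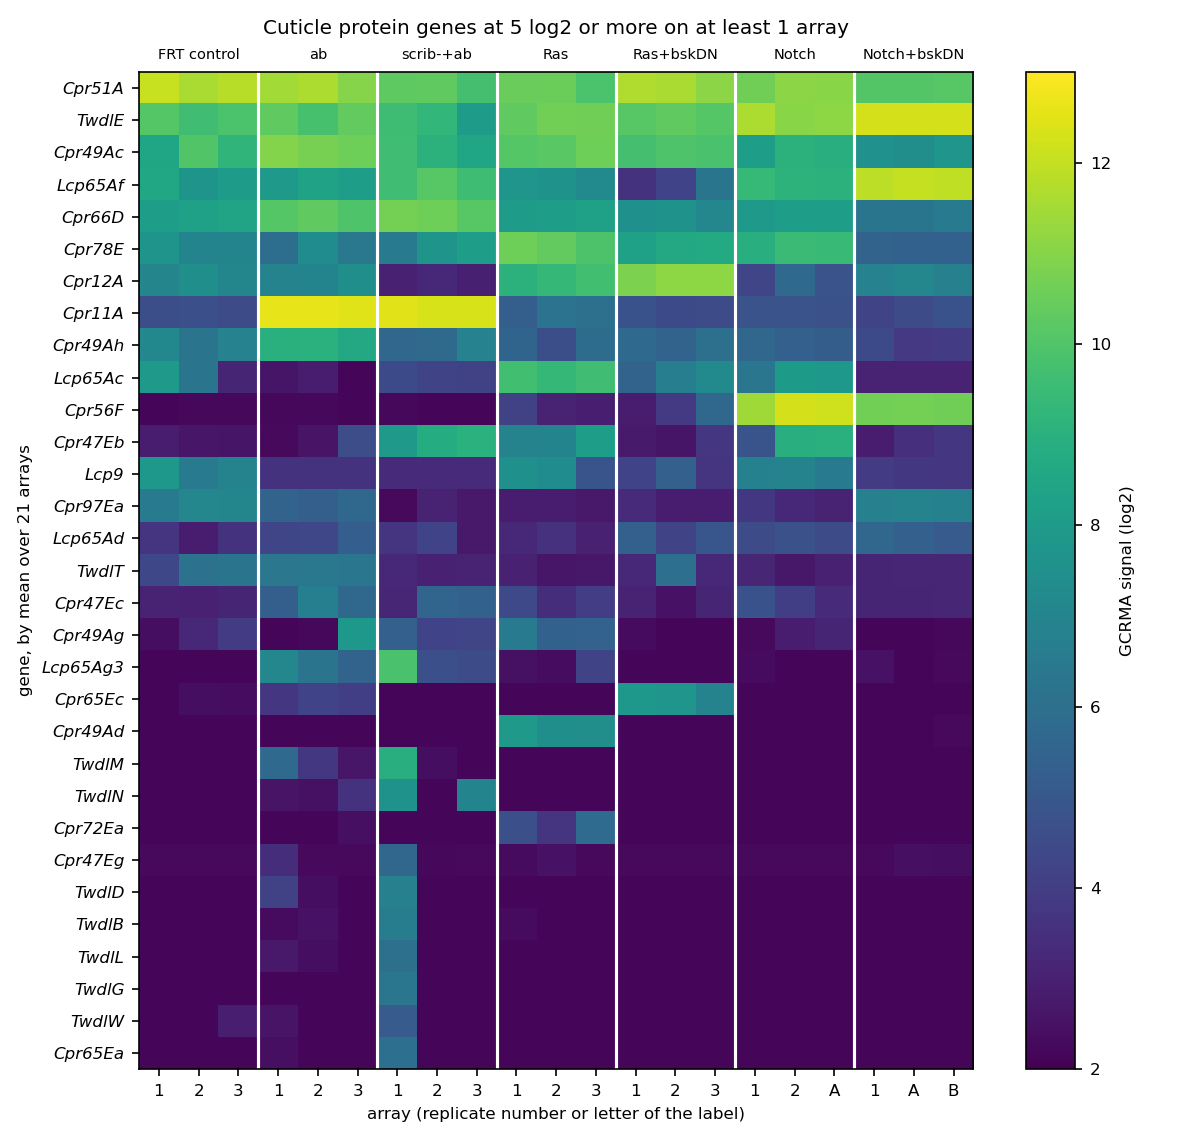
GCRMA signal (log2, colour) of the 31 cuticle protein genes that reached 5 log2 on at least 1 array, with genes in rows, ordered by their mean for display, and the 21 arrays in columns by group. *Cpr51A* and *TwdlE* were bright on all 21 arrays, *Cpr11A* on the *ab* and *scrib-*+*ab* arrays and *Cpr56F* on the Notch and Notch+*bskDN* arrays, and 7 genes reached 5 log2 only on replicate 1 of *scrib-*+*ab*.

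The groups held similar numbers of these genes but different ones. The genes at 5 log2 or more on all 3 arrays numbered 10 in the FRT control, 13 in *ab*, 9 in *scrib-*+*ab*, 12 in Ras, 9 in Ras+*bskDN*, 10 in Notch and 10 in Notch+*bskDN* discs. Of the 21 genes, the highest group mean of *Cpr51A*, *Cpr97Ea* and *Lcp9* was in the control, that of *Cpr11A*, *Cpr47Ec*, *Cpr49Ac*, *Cpr49Ah* and *TwdlT* in *ab*, and that of *Cpr47Eb*, *Cpr66D* and *Lcp65Ag3* in *scrib-*+*ab*. Ras tumours had the highest means of *Cpr49Ad*, *Cpr49Ag*, *Cpr78E* and *Lcp65Ac*, and Ras+*bskDN* of *Cpr12A* and *Cpr65Ec*. Notch tumours had that of *Cpr56F*, and Notch+*bskDN* those of *Lcp65Ad*, *Lcp65Af* and *TwdlE*. In 9 comparisons of 2 groups, 25 members (19 Cpr, 4 Lcp and 2 Twdl) were called at least once, which is 25.8% of the members against 26.2% of all probe sets and so close to the share on the array as a whole. In none of these calls did the arrays of the groups compared overlap. The same was not counted for the other probe sets called, so it does not set the members apart. The median difference over the 97 members was 0 in every comparison, as was that over all probe sets.

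The first question of the series is how *ab* overexpression alone and in *scrib* mutant clones changes the discs. In *ab* discs 7 cuticle protein genes rose and 2 fell against the FRT control. *Cpr11A* stood at 12.57, 12.59 and 12.45 on the *ab* arrays and at 4.63, 4.67 and 4.57 on the control arrays. It rose by 7.91 on the log2 scale (SE 0.06, adjusted p = 1.5e-08). In *scrib-*+*ab* discs it was as high, at 12.49, 12.34 and 12.32 (log2 difference from the control 7.76, SE 0.06, adjusted p = 2.1e-08). On the 12 Ras and Notch arrays with and without *bskDN* its highest value was 6.20. The 9 calls made up 9.28% of the members, where 14.5% of all probe sets were called in this comparison (8.68% higher and 5.87% lower). With further quantile normalization the members called were 3 higher and 3 lower, and of all probe sets 7.11% were called higher and 7.62% lower. In *scrib-*+*ab* against the control 4 members rose and 5 fell, again 9.28% of the members, against 17.2% of all probe sets (8.72% higher and 8.46% lower).

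Of the other 6 genes that rose in *ab* discs, *Cpr49Ah*, *Cpr66D* and *Cpr49Ac* were above 5 log2 in the control already, and *Cpr47Ec*, *Cpr65Ec* and *Cpr100A* were at or near the floor there. *Cpr49Ah* read 8.96, 9.03 and 8.66 in *ab* and 7.12, 6.22 and 6.88 in control discs (log2 difference 2.14, SE 0.39, adjusted p = 0.0073). *Cpr66D* read 10.09, 10.33 and 9.95 in *ab*, 10.68, 10.59 and 10.13 in *scrib-*+*ab* and 8.12, 8.30 and 8.41 in control discs. It was called higher in both groups, by 1.85 (SE 0.18, adjusted p = 0.00047) and 2.19 (SE 0.18, adjusted p = 0.00018). *Cpr65Ec* left the floor in *ab* discs only to a low level, 3.74, 4.20 and 4.02 against 2.17, 2.39 and 2.36 (log2 difference 1.68, SE 0.12, adjusted p = 0.00014). *Cpr47Ec* (2.83), *Cpr49Ac* (1.52) and *Cpr100A* (1.5) were also called higher in *ab*, with adjusted p of 0.026, 0.047 and 0.042. These calls ended when single arrays were left out: *Cpr47Ec* without *ab* replicate 2 or 3 or any control array (adjusted p 0.063 to 0.086), *Cpr49Ac* without any *ab* array or control replicate 1 or 3 (0.093 to 0.14), and *Cpr100A* without *ab* replicate 2 or any control array (0.097 to 0.11). With further quantile normalization *Cpr65Ec* (0.85), *Cpr100A* (0.91), *Cpr47Ec* (adjusted p 0.09) and *Cpr49Ac* (adjusted p 0.051) were not called.

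*Lcp9* and *Cpr97Ea* fell in both groups. *Lcp9* read 7.86, 6.49 and 6.93 in control discs, 3.60 on each *ab* array and 3.34, 3.36 and 3.33 in *scrib-*+*ab* discs. Its log2 differences from the control were -3.49 (SE 0.32, adjusted p = 0.00041) and -3.75 (SE 0.32, adjusted p = 0.00024). *Cpr97Ea* fell part of the way in *ab* discs, to 5.49, 5.32 and 5.74 from 6.56, 7.10 and 7.06 (log2 difference -1.39, adjusted p = 0.007). With a trended, robust eBayes that call of *Cpr97Ea* was not made (adjusted p 0.082). In *scrib-*+*ab* discs it fell to 2.28, 3.09 and 2.73 (log2 difference -4.20, SE 0.25, adjusted p = 5.6e-05).

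Against *ab*, *scrib-*+*ab* discs had 2 members higher and 6 lower, 8.25% of the members against 4.28% of all probe sets (1.82% higher and 2.46% lower, or 2.25% and 2% with further quantile normalization). *Cpr47Eb* rose from 2.30, 2.60 and 4.60 in *ab* to 7.93, 8.81 and 9.01 in *scrib-*+*ab* (log2 difference 5.42, SE 0.64, adjusted p = 0.0047), and control discs had 2.87, 2.65 and 2.63. *Cpr12A* went the other way. It read 6.92, 6.95 and 7.47 in *ab*, 7.02, 7.48 and 7.07 in control and 2.99, 3.24 and 2.96 in *scrib-*+*ab* discs (log2 difference from *ab* -4.05, SE 0.20, adjusted p = 0.00036). *Lcp65Af* was higher in *scrib-*+*ab* (9.65, 10.13 and 9.56) than in *ab* (7.90, 8.34 and 8.17), with an adjusted p of 0.014. *TwdlT* was at 3.22, 3.02 and 3.03 in *scrib-*+*ab* and at 6.38, 6.39 and 6.32 in *ab* discs (log2 difference -3.27, SE 0.47, adjusted p = 0.0091). *Cpr97Ea* (-2.81, adjusted p = 0.0021), *Cpr49Ah* (-2.78, adjusted p = 0.0085), *Cpr65Ec* (-1.81, adjusted p = 0.00091) and *Cpr51A* (-1.26, adjusted p = 0.021) were the other members called lower. The calls of *Lcp65Af* (0.052 without *ab* replicate 1) and *Cpr51A* (0.073 and 0.065 without *ab* replicate 1 or 2) rested on single *ab* arrays, and no call of *scrib-*+*ab* against the control was lost without any 1 array. With a trended, robust eBayes, *Lcp65Af* (0.076), *TwdlT* (0.058), *Cpr65Ec* (0.078) and *Cpr51A* (0.087) were not called against *ab*. With array quality weights *Lcp65Af* (0.12), *TwdlT* (0.1) and *Cpr51A* (0.075) were not called against *ab*. Against the control, *Cpr47Eb* (5.87), *Lcp65Af* (1.67), *Cpr12A* (-4.13), *TwdlT* (-2.49) and *Cpr51A* (-1.72) were called too. Of these, the call of *TwdlT* was not made with array quality weights (adjusted p 0.055).

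Markers of other cell types differed between the same groups. The summed signal of 7 haemocyte markers was 11.64 to 11.92 in *ab*, 12.45 to 12.69 in *scrib-*+*ab* and 9.68 to 10.32 in control discs. Of these 7 genes, 3 were called higher in *ab* and 4 in *scrib-*+*ab*, and *NimC1* was at the floor in the control. The summed signal of 4 muscle markers was 10.58 to 11.55, 11.46 to 12.02 and 8.75 to 10.52 in the same order, with 3 of 4 called higher in each group. That of 3 fat body markers was 6.32 to 8.05, 5.78 to 8.05 and 8.08 to 10.15, and *Fbp1* (-2.75) was called lower in *scrib-*+*ab* than in the control. That of 5 salivary gland markers was 6.54 to 10.37, 4.84 to 9.48 and 7.99 to 11.47, with none called against the control. Of 5 neuroblast and glia markers (summed signal 9.49 to 9.94 in *ab*, 11.31 to 11.46 in *scrib-*+*ab* and 11.05 to 11.23 in control discs), 2 were called lower in *ab*, *dpn* (-3.52) and *mira* (-2.28), and in *scrib-*+*ab* *insc* (3.62) was higher and *dpn*, *mira* and *repo* lower. The part of these cells in the cuticle gene results was not tested. The tracheal marker *btl*, the only one of 3 listed tracheal genes that was measured, read 2.27 or less in all 3 groups.

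The second question is which genes depend on JNK in tumours driven by Ras or Notch, asked by comparing each tumour with its *bskDN* counterpart. In Ras tumours 8 members were higher with JNK active and 6 were lower, 14.4% of the members against 4.22% of all probe sets (1.78% higher and 2.44% lower). In Notch tumours 7 were higher and 4 lower, 11.3% against 5.37% (3.73% higher and 1.64% lower). With further quantile normalization 5 were higher and 5 lower in Notch tumours. Members called higher with JNK in both tumours were *Cpr47Eb*, *Cpr78E* and *Lcp65Ac*, and *Cpr12A* was called lower in both.

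*Cpr47Eb* read 6.91, 6.96 and 8.13 in Ras tumours and 2.81, 2.62 and 3.72 in Ras+*bskDN*. In Notch tumours it read 4.84, 8.89 and 8.96, and in Notch+*bskDN* 2.85, 3.48 and 3.72. Its differences were 4.28 (SE 1.03, adjusted p = 0.032) and 4.22 (SE 1.03, adjusted p = 0.024). The groups did not overlap in either tumour. The Ras call was lost without any 1 of its 6 arrays (adjusted p 0.058 to 0.11). The Notch call was lost without Notch replicate 2 or A or any Notch+*bskDN* array (0.061 to 0.093).

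*Cpr78E* and *Lcp65Ac* were expressed in the tumours and lower with *bskDN*. *Cpr78E* read 10.58, 10.37 and 9.93 in Ras and 8.31, 8.62 and 8.72 in Ras+*bskDN* (log2 difference 1.75, SE 0.20, adjusted p = 0.001). It read 8.91, 9.48 and 9.47 in Notch and 5.48, 5.40 and 5.40 in Notch+*bskDN* (log2 difference 3.86, SE 0.20, adjusted p = 8.9e-06). *Lcp65Ac* read 9.69, 9.33 and 9.61 in Ras and 5.50, 6.70 and 7.23 in Ras+*bskDN* (log2 difference 3.07, SE 0.52, adjusted p = 0.0064). In Notch it read 6.32, 7.98 and 7.87, and 3.07 on each Notch+*bskDN* array (log2 difference 4.32, SE 0.52, adjusted p = 0.00072). The control arrays were spread widely for *Lcp65Ac*, at 7.95, 6.25 and 3.15, below each Ras array and above each Notch+*bskDN* array.

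*Cpr12A* was higher with *bskDN* in both tumours, from different starting levels. It read 9.07, 9.32 and 9.66 in Ras and 10.84, 11.14 and 11.14 in Ras+*bskDN* (log2 difference -1.69, SE 0.33, adjusted p = 0.013). In Notch it read 4.29, 5.75 and 4.81, below the control, and in Notch+*bskDN* 6.90, 7.10 and 6.79 (log2 difference -1.98, SE 0.33, adjusted p = 0.0041). The Ras call was lost without Ras replicate 1 (adjusted p 0.053) or Ras+*bskDN* replicate 2 (0.052).

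**Figure D2:**
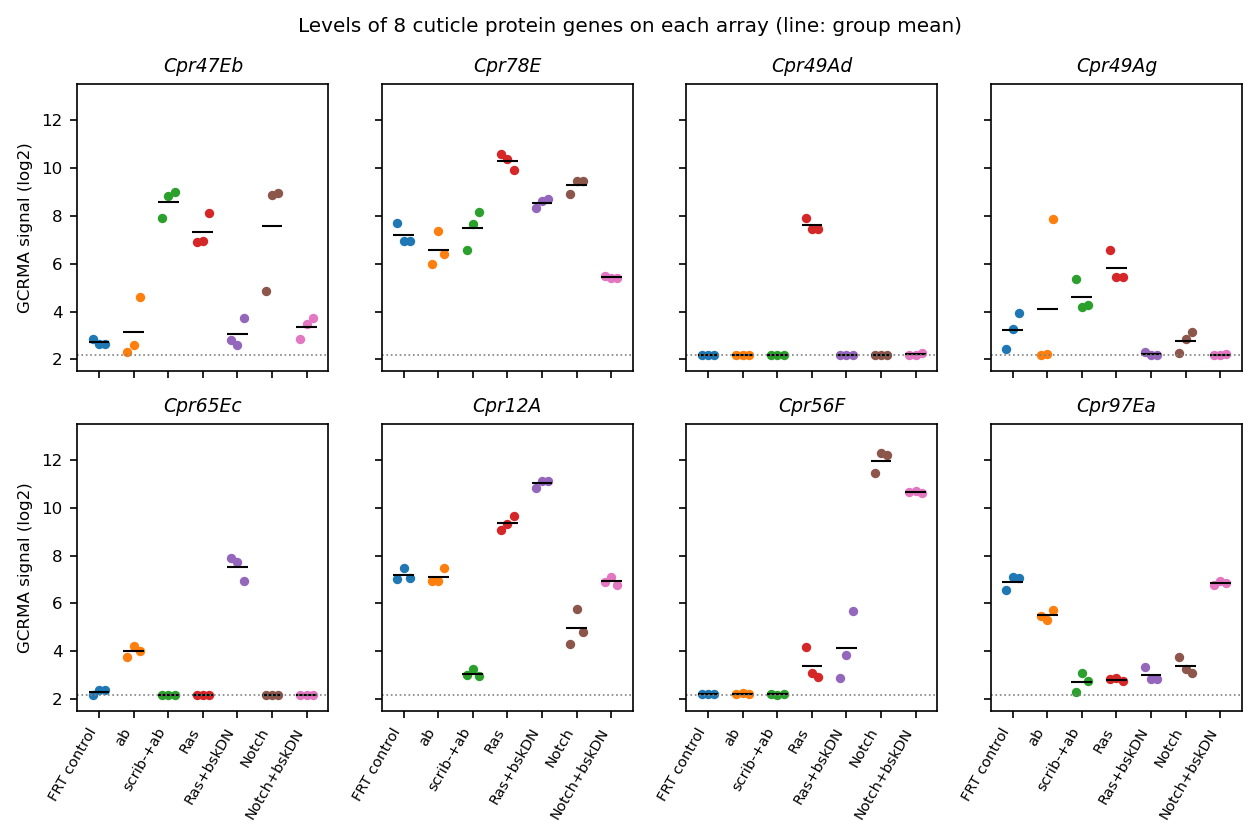
GCRMA signal (log2, vertical axis) of 8 cuticle protein genes on each of the 21 arrays (points), by group, with the group mean as a line and the floor of 2.17 dotted. *Cpr47Eb* was high in *scrib-*+*ab*, Ras and Notch discs, *Cpr49Ad* above the floor only in Ras, *Cpr65Ec* highest in Ras+*bskDN*, and *Cpr56F* above 10.6 only in both Notch groups.

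Several members were called in the Ras tumours and not in the Notch tumours, and the test of that difference follows after both. *Cpr49Ad* read 7.90, 7.46 and 7.45 in Ras tumours and 2.17, 2.19 and 2.17 in Ras+*bskDN* (log2 difference 5.42, SE 0.10, adjusted p = 2e-08). On the 18 arrays of the other 6 groups its highest value was 2.27. *Cpr49Ag* read 6.57, 5.44 and 5.44 in Ras and 2.31, 2.19 and 2.20 in Ras+*bskDN* (log2 difference 3.59, SE 0.32, adjusted p = 0.00023). *Cpr65Ec* did the opposite: it was at 2.17 on each Ras array and at 7.88, 7.73 and 6.93 in Ras+*bskDN* (log2 difference -5.34, SE 0.20, adjusted p = 2.1e-06).

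The neighbours *Cpr72Ea* and *Cpr72Eb* went in opposite directions in the Ras tumours. *Cpr72Ea* read 4.68, 3.66 and 5.83 in Ras and 2.17, 2.18 and 2.18 in Ras+*bskDN* (log2 difference 2.54, SE 0.43, adjusted p = 0.0068). *Cpr72Eb* read 2.25, 2.19 and 2.20 in Ras and 4.90, 4.54 and 3.60 in Ras+*bskDN* (log2 difference -2.13, SE 0.27, adjusted p = 0.0016). Apart from these groups neither gene read above 2.45 on any array. *Cpr30B* was at 2.67, 2.49 and 2.67 in Ras and at 4.68, 4.43 and 3.97 in Ras+*bskDN* (log2 difference -1.75, adjusted p = 0.00023), and 1 control array reached 4.82.

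The remaining calls in the Ras tumours were those of 4 genes. *Lcp65Af* (2.85, adjusted p = 0.014) and *Cpr11A* (1.29, adjusted p = 0.0069) were higher with JNK active, and *Lcp65Ad* (-1.57, adjusted p = 0.0074) and *Cpr51A* (-1.16, adjusted p = 0.01) were lower. The call of *Lcp65Af* was lost without Ras replicate 1 or 2 or Ras+*bskDN* replicate 2 (adjusted p 0.053 to 0.059), and that of *Cpr51A* without Ras replicate 3, where its difference was -0.96. With the 6 Ras arrays alone in the fit, the calls of *Lcp65Ac* (0.065), *Lcp65Af* (0.19), *Cpr72Ea* (0.14), *Cpr11A* (0.11), *Cpr72Eb* (0.075), *Lcp65Ad* (0.13) and *Cpr51A* (0.13) were not made.

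In Notch tumours the called members included genes that were not called in the Ras tumours. *Cpr97Ea* read 3.76, 3.28 and 3.10 in Notch and 6.79, 6.92 and 6.85 in Notch+*bskDN*, where it was as high as in the control (log2 difference -3.47, SE 0.18, adjusted p = 8.6e-06). In Ras and Ras+*bskDN* discs all 6 values of *Cpr97Ea* lay between 2.75 and 3.33. *Cpr64Ac* was near the floor everywhere except in Notch+*bskDN*, at 4.45, 4.84 and 4.24 (log2 difference -2.22, SE 0.14, adjusted p = 2.4e-05). *Cpr66D* read 7.93, 8.16 and 8.11 in Notch and 6.28, 6.26 and 6.59 in Notch+*bskDN* (log2 difference 1.69, SE 0.15, adjusted p = 0.00018).

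*Lcp9* read 6.82, 6.90 and 6.54 in Notch and 3.96, 3.77 and 3.76 in Notch+*bskDN* (log2 difference 2.92, SE 0.69, adjusted p = 0.022). Its values in Ras were 7.53, 7.36 and 4.86, and in Ras+*bskDN* 4.23, 5.37 and 3.69, so that those groups overlapped. *Cpr49Ah* (1.35, adjusted p = 0.023) and *Cpr49Ac* (1.14, adjusted p = 0.0098) were also higher with JNK active, and *Lcp65Af* was lower (-2.79, adjusted p = 0.011). The call of *Lcp9* was lost without any 1 of the 6 Notch arrays (adjusted p 0.052 to 0.075) and that of *Cpr49Ah* without any but Notch+*bskDN* replicate 1 (0.054 to 0.085). Without Notch replicate 2 the difference of *Cpr49Ac* was 0.98 (adjusted p 0.039), and 7 members were called in all instead of 11. With the 6 Notch arrays alone in the fit, the calls of *Cpr47Eb* (0.14), *Cpr49Ac* (0.076) and *Cpr12A* (0.052) were not made.

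Other cell types also differed between the tumours with and without *bskDN*. In Notch against Notch+*bskDN*, 5 of 7 haemocyte markers (summed signal 9.76 to 10.88 against 8.48 to 9.01), all 4 muscle markers (10.16 to 10.62 against 5.16 to 5.52), 3 of 5 salivary gland markers (9.27 to 9.28 against 7.0 to 7.1) and 1 of 3 fat body markers were higher with JNK active. Notch replicate 1, the array with the lowest *Cpr47Eb* and *Lcp65Ac* of its group, also had the lowest fat body signal, 9.19 against 12.31 and 12.37. On that array 97 of all probe sets were over 2 log2 below both other Notch arrays. Fat body signal was 5.94 to 6.02 on the Ras arrays, where both genes were high. In Ras against Ras+*bskDN*, 1 of 7 haemocyte markers and 2 of 4 muscle markers were higher (muscle signal 11.07 to 11.39 against 8.89 to 10.50), and fat body signal spanned 6.87 to 13.19 in Ras+*bskDN*. Of the 5 neuroblast and glia markers, *insc* (3.98), *moody* (3.39) and *repo* (1.88) were higher and *dpn* (-1.28) lower in Notch than in Notch+*bskDN*, with a summed signal of 11.89 to 12.06 against 12.43 to 12.74. In Ras against Ras+*bskDN* *insc* (2.27) was higher and *mira* (-1.35) and *dpn* (-1.02) lower, with a summed signal of 11.12 to 11.46 against 11.42 to 11.55. The part of these cells in the cuticle gene results was not tested.

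The difference between the responses to *bskDN* in the Ras and the Notch tumours was tested directly, and 12 members were called, 7 with a more positive effect of JNK in Ras and 5 with a more positive effect in Notch. They made up 12.4% of the members against 4.51% of all probe sets (1.22% in the first direction and 3.29% in the second, or 2.22% and 2.83% with further quantile normalization). *Lcp65Af* had the largest value of the 12. It read 7.75, 7.63 and 7.24 in Ras and 3.60, 4.22 and 6.26 in Ras+*bskDN*, but 9.36, 9.11 and 9.06 in Notch and 11.92, 12.02 and 11.97 in Notch+*bskDN*. The effects thus had opposite signs, and they differed by 5.64 (SE 0.81, adjusted p = 0.0036). The next were *Cpr49Ad* (5.45, SE 0.15, adjusted p = 3.4e-07), which was at the floor in the Notch groups, and *Cpr65Ec* (-5.34, SE 0.29, adjusted p = 2.6e-05), which was also at the floor there.

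*Cpr97Ea* (3.28, adjusted p = 0.00019), *Cpr49Ag* (3.03, adjusted p = 0.0041), *Cpr72Ea* (2.54, adjusted p = 0.037), *Cpr64Ac* (2.16, adjusted p = 0.00043) and *TwdlE* (1.36, adjusted p = 0.0057) also had the more positive effect in Ras. *TwdlE*, the Twdl gene with clear signal on every array, read 11.65, 11.07 and 11.15 in Notch and 12.31, 12.29 and 12.27 in Notch+*bskDN*, against 10.33, 10.66 and 10.63 in Ras and 10.15, 10.31 and 10.09 in Ras+*bskDN*. *Cpr72Eb* (-2.13, adjusted p = 0.011), *Cpr78E* (-2.12, adjusted p = 0.003), *Cpr51A* (-1.99, adjusted p = 0.0049) and *Cpr30B* (-1.84, adjusted p = 0.0015) had the more positive effect in Notch. *Cpr51A* read 10.48, 10.51 and 9.90 in Ras and 11.68, 11.62 and 11.08 in Ras+*bskDN*, but 10.62, 11.08 and 11.03 in Notch and 10.07, 10.05 and 10.13 in Notch+*bskDN*. The call of *Cpr72Ea* was lost without any 1 of the 12 arrays except Ras replicate 2 or 3 (adjusted p 0.062 to 0.087).

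**Figure D3:**
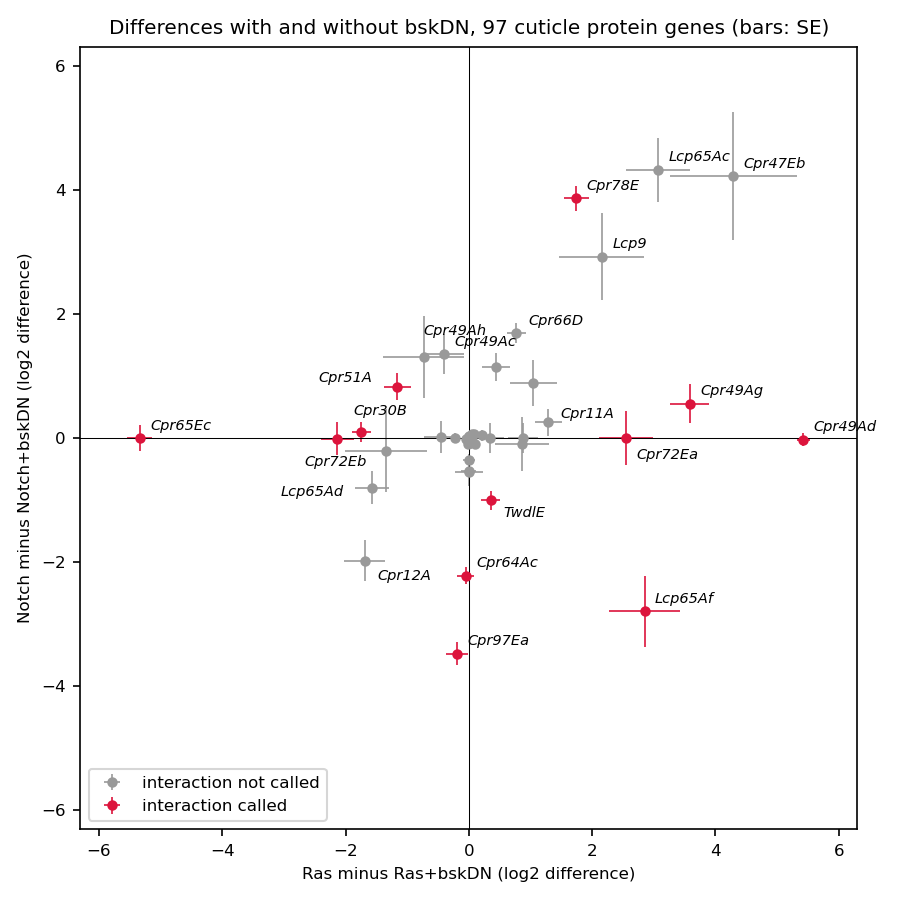
Log2 difference between Ras and Ras+*bskDN* (horizontal axis) and between Notch and Notch+*bskDN* (vertical axis) for the 97 cuticle protein genes, with SE bars, and in red the 12 genes whose 2 differences were called unlike. *Lcp65Af* lies in the quadrant of opposite signs, at 2.85 and -2.79, while *Cpr47Eb* and *Lcp65Ac* lie high on both axes.

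Set against the FRT control, 8 to 13 members were called in each of the Ras and Notch groups, and these counts were not compared by a test. The 4 comparisons that follow share the 3 control arrays. Ras tumours had 8 members higher and 4 lower, 12.4% of the members against 6.43% of all probe sets (2.75% higher and 3.68% lower). Notch tumours had 4 and 4, 8.25% against 4.03% (1.65% and 2.38%). Ras+*bskDN* discs had 6 and 3, 9.28% against 3.38% (1.87% and 1.51%), and Notch+*bskDN* discs 5 and 8, 13.4% against 5.71% (1.58% and 4.13%, or 2.39% and 3.4% with further quantile normalization). Markers of other cells were called in 3 of these 4 comparisons. In Notch+*bskDN* 4 of 7 haemocyte markers (among them *Hml*, -4.37), 3 of 4 muscle markers (*Mlc1*, -5.31) and 1 of 5 salivary gland markers were lower than in the control, and of the neuroblast and glia markers 4 were lower and *dpn* (2.57) was higher. In Ras 2 of 4 muscle markers, 1 haemocyte marker and *insc* were higher and 2 of 5 salivary gland markers lower. In Notch 1 haemocyte and 1 muscle marker, *insc* and *dpn* were higher, and the summed haemocyte signal in Ras+*bskDN* was 9.47 to 9.83, against 9.68 to 10.32 in the control. Though none was called in Ras+*bskDN*, 3 of 7 haemocyte, 3 of 5 salivary gland and 2 of 5 neuroblast and glia markers had an unadjusted limma p under 0.05. Summed salivary signal there was 6.08 to 7.84 against 7.99 to 11.47 in the control, and fat body signal 6.87 to 13.19 against 8.08 to 10.15. The part of these cells in the results was not tested.

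*Cpr56F* separated the Notch groups from all others. It read 11.44, 12.28 and 12.19 in Notch and 10.67, 10.70 and 10.62 in Notch+*bskDN*, and 2.20, 2.22 and 2.22 in control discs. Its differences from the control were 9.76 (SE 0.50, adjusted p = 1.8e-08) and 8.46 (SE 0.50, adjusted p = 2.3e-08). Ras tumours had 4.19, 3.11 and 2.90, and Ras+*bskDN* 2.88, 3.85 and 5.67, where the difference of 1.92 was called at an adjusted p of 0.023. That last call was lost without any 1 control array or Ras+*bskDN* replicate 3 (0.059 to 0.07).

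*Cpr97Ea* was lower than in the control in Ras (-4.09, adjusted p = 1.3e-08), Notch (-3.53, adjusted p = 1.2e-07) and Ras+*bskDN* (-3.90, adjusted p = 3.2e-08), but in Notch+*bskDN* it was not called. *Cpr78E* was higher than in the control in Ras (3.09, adjusted p = 4.6e-05) and Notch (2.09, adjusted p = 0.002). Its mean was lower in Notch+*bskDN* (-1.77, adjusted p = 0.0041), and the control arrays read 7.70, 6.96 and 6.94. *TwdlT* was at 2.68 to 3.21 on 11 of the 12 arrays of these groups and at 6.03 on Ras+*bskDN* replicate 2, against 4.40, 6.10 and 6.24 in the control. It was called lower in Ras (-2.77, adjusted p = 0.0033), Notch (-2.61, adjusted p = 0.0089) and Notch+*bskDN* (-2.41, adjusted p = 0.01). The call in Notch was lost without control replicate 3 (0.051), as was that in Notch+*bskDN* (0.054).

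Ras and Notch tumours are given here side by side. *Cpr47Eb* was higher in both, by 4.62 (SE 0.89, adjusted p = 0.0015) and 4.85 (SE 0.89, adjusted p = 0.0018), against 2.87, 2.65 and 2.63 on the control arrays. *Cpr49Ad* (5.43, adjusted p = 3e-15), *Lcp65Ac* (3.76, adjusted p = 0.0047), *Cpr72Ea* (2.54, adjusted p = 7.3e-05), *Cpr12A* (2.16, adjusted p = 7.3e-05), *Cpr11A* (1.24, adjusted p = 0.00012) and *Cpr49Ac* (1.05, adjusted p = 0.039) were called higher in Ras. *Cpr12A* was lower than the control in Notch (-2.24, adjusted p = 8.8e-05), and *TwdlE* was higher there (1.42, adjusted p = 0.0045). *Cpr49Ah* was lower in both Ras (-1.38, adjusted p = 0.012) and Notch (-1.33, adjusted p = 0.026), and *Cpr51A* was lower in Ras (-1.53, adjusted p = 0.00019). With same-numbered arrays as blocks, the call of *Cpr49Ac* in Ras was not made (adjusted p = 0.079), and it was lost without any Ras array or control replicate 1 or 3 (0.071 to 0.2). The calls of *Cpr49Ah* were lost in Ras without control replicate 1 (0.056) or Ras replicate 2 (0.072), and in Notch without control replicate 1 or 3 or Notch replicate 2 or A (0.081 to 0.1). With only the 6 arrays compared in the fit, the calls of *Lcp65Ac* (0.2), *Cpr72Ea* (0.089), *Cpr11A* (0.071), *TwdlT* (0.071), *Cpr49Ah* (0.16) and *Cpr49Ac* (0.26) were not made in Ras, nor those of *Cpr47Eb* (0.13), *TwdlT* (0.086), *Cpr12A* (0.064) and *Cpr49Ah* (0.077) in Notch.

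The *bskDN* tumours had their own sets. In Ras+*bskDN*, *Cpr65Ec* (5.21, SE 0.17, adjusted p = 5.5e-11), *Cpr12A* (3.85, SE 0.28, adjusted p = 6.7e-07), *Cpr72Eb* (2.13, adjusted p = 1.2e-05), *Lcp65Ad* (1.46, adjusted p = 0.024) and *Cpr78E* (1.35, adjusted p = 0.039) were higher than in the control. *Lcp65Af* (-3.42, adjusted p = 0.00027) and *Lcp9* (-2.66, adjusted p = 0.0071) were lower. In Notch+*bskDN*, *Lcp65Af* (3.86, SE 0.47, adjusted p = 3e-05), *TwdlE* (2.42, SE 0.29, adjusted p = 2.7e-05), *Cpr64Ac* (2.15, adjusted p = 9.2e-09) and *Lcp65Ad* (2.00, adjusted p = 0.0015) were higher. The lower genes there were *Lcp9* (-3.26, adjusted p = 0.00076), *Lcp65Ac* (-2.72, adjusted p = 0.039), *Cpr49Ah* (-2.68, adjusted p = 7.2e-05), *Cpr66D* (-1.90, adjusted p = 1.2e-06), *Cpr51A* (-1.75, adjusted p = 5.1e-05) and *Cpr49Ac* (-1.65, adjusted p = 0.0029), beside *Cpr78E* and *TwdlT*. Calls lost without single arrays were those of *Lcp65Ad* (control replicate 2, Ras+*bskDN* replicate 1 or 3, 0.075 to 0.11) and *Cpr78E* (control replicate 2 or 3 or any Ras+*bskDN* array, 0.065 to 0.14) in Ras+*bskDN*, and of *Lcp65Ac* (control replicate 1 or 2 or any Notch+*bskDN* array, 0.087 to 0.19) in Notch+*bskDN*. With only the 6 arrays compared in the fit, *Cpr56F* (0.28), *Lcp65Ad* (0.12), *Cpr78E* (0.054), *Lcp65Af* (0.083) and *Lcp9* (0.077) were not called in Ras+*bskDN*, nor *Lcp65Ac* (0.33), *TwdlT* (0.055) and *Cpr49Ac* (0.069) in Notch+*bskDN*.

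Genes of 1 chromosomal cluster differed in level and in direction. By the RefSeq gene order, with at most 3 other genes between neighbours, 86 of the 113 genes lie in 16 clusters and 27 stand alone. The cluster of the *Cpr47E* genes has 7 members, all measured, and only *Cpr47Eb* and *Cpr47Ec* reached 5 log2 on all arrays of a group. *Cpr47Eb* was high in *scrib-*+*ab*, Ras and Notch discs, whereas the highest mean of *Cpr47Ec* was in *ab* discs, where it read 5.32, 6.74 and 5.71. Their neighbours *Cpr47Ea*, *Cpr47Ed* and *Cpr47Ef* had group means close to the floor in all 7 groups.

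The cluster of the *Cpr49A* genes has 8 members, of which *Cpr49Ac*, *Cpr49Ad*, *Cpr49Ag* and *Cpr49Ah* reached that level. *Cpr49Ac* was expressed in every group, at 7.46 or more on every array, while its neighbour *Cpr49Ad* read above 2.27 in Ras tumours only. *Cpr49Ah*, at the other end of the measured genes, was highest in *ab* discs.

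The cluster of the *Lcp65A* and *Cpr65A* genes has 18 members, 10 of them measured, and *Lcp65Ag3*, *Lcp65Af*, *Lcp65Ad* and *Lcp65Ac* reached the level. *Lcp65Af* was highest in Notch+*bskDN*, where *Lcp65Ac* read 3.07 on each array, and *Lcp65Ac* was highest in Ras tumours. *Lcp65Ag3* read 7.07, 6.22 and 5.49 in *ab*, 9.82, 4.70 and 4.51 in *scrib-*+*ab* and 2.17 on each control array, and was not called in either comparison with the control. *Lcp65Ad* was higher with *bskDN* in Ras tumours, where *Lcp65Ac* and *Lcp65Af* were lower. *Cpr65Ec* belongs to another cluster, with *Cpr65Ea* and *Cpr65Eb*, neither of which rose with it in Ras+*bskDN*, where *Cpr65Ea* read 2.17 on each array.

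**Figure D4:**
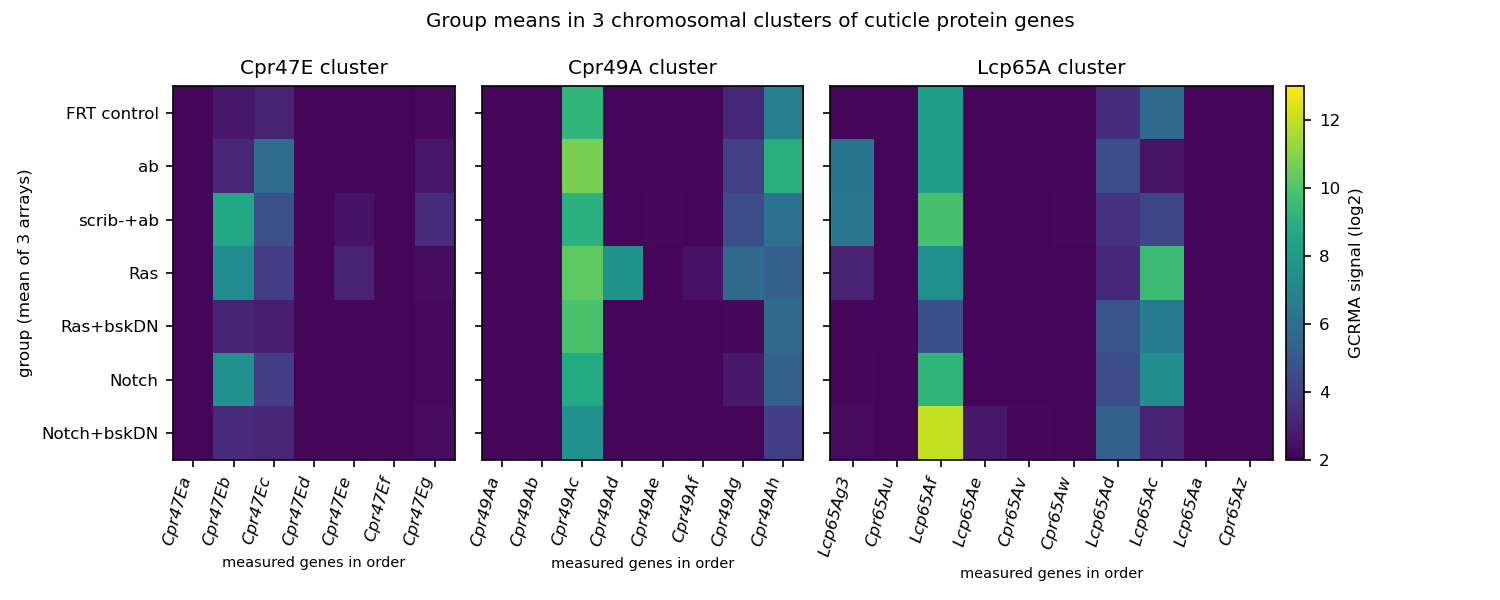
Mean GCRMA signal (log2, colour) of 3 arrays per group (rows) for the measured genes of the clusters named for *Cpr47E*, *Cpr49A* and *Lcp65A* (columns, in chromosomal order). In each cluster most measured genes lie near the floor, and the genes that are bright differ between groups, such as *Lcp65Af* in Notch+*bskDN* and *Lcp65Ac* in Ras.

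Of the 9 Twdl genes that reached 5 log2, *TwdlB*, *TwdlD*, *TwdlG*, *TwdlL* and *TwdlW* did so on 1 array only, replicate 1 of *scrib-*+*ab*. On this array, 9 members were over 2 log2 above both other arrays of the group, 9.28% of the members against 0.57% of all probe sets (107). On the other 20 arrays this held for 0 to 2 members and for at most 67 probe sets. The 9 genes were *TwdlB* (6.61), *TwdlD* (6.79), *TwdlG* (6.34), *TwdlL* (6.06), *TwdlM* (8.91), *TwdlW* (5.14), *Cpr47Eg* (5.63), *Cpr65Ea* (6.02) and *Lcp65Ag3* (9.82). On the other 2 *scrib-*+*ab* arrays *TwdlB*, *TwdlD*, *TwdlG*, *TwdlL*, *TwdlW* and *Cpr65Ea* were at the floor. *TwdlD* is one of the genes in which a Tweedle mutation was found.

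None of the 9 was called in the comparisons of *scrib-*+*ab*. *TwdlN* read 7.59 and 6.94 on replicates 1 and 3 and 2.21 on replicate 2. Of the *ab* arrays, replicate 1 had the highest values of *TwdlM* (5.74) and *TwdlD* (4.16), and no Ras, Notch or control array had either gene above 2.21. Of the 12 measured genes in the largest Twdl cluster, *TwdlM*, *TwdlB*, *TwdlL*, *TwdlN* and *TwdlD* thus reached 5 log2 on this array. In all 20 members were at 5 log2 or more on *scrib-*+*ab* replicate 1, against 10 and 11 on the other arrays of its group. Without that array 24 of the 97 genes reached 5 log2 on any array, and leaving it out ended no call in the comparisons of *scrib-*+*ab*. The summed signal of 5 salivary gland markers was also higher on this array, 9.48 against 4.84 and 5.11, while that of muscle markers (11.46) and haemocyte markers (12.45) was the lowest of the group. In other groups, salivary signal was higher still on control replicates 1 and 2 (11.47 and 11.16) and on *ab* replicate 2 (10.37). On *ab* replicate 1 it was 6.54, the lowest of the *ab* arrays. The part of these cells in the Twdl values was not tested.

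**Figure D5:**
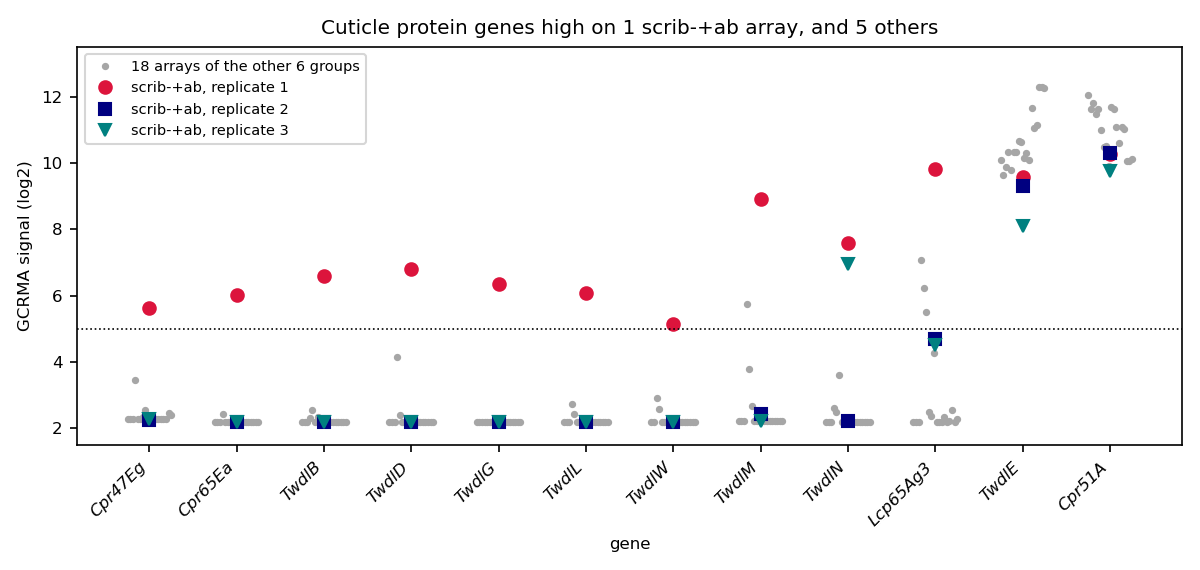
GCRMA signal (log2, vertical axis) of 12 cuticle protein genes (horizontal axis) on the 3 *scrib-*+*ab* arrays (coloured) and the 18 arrays of the other 6 groups (grey), with 5 log2 dotted. The first 7 genes reach 5 log2 only on replicate 1, *TwdlN* is high on replicates 1 and 3, and *TwdlE* and *Cpr51A* are high on all arrays.

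Cuticle genes outside the 3 name families were compared in the same way. Of 9 measured genes of the Rebers-Riddiford family under other names, *Ccp84Ac*, *Ccp84Ae*, *Ccp84Ag* and *l(3)mbn* stayed within 0.1 of the floor on all 21 arrays, and *resilin*, which encodes a rubber-like protein, did so outside Notch+*bskDN*. Only the pupal cuticle gene *Pcp* was called: it fell in *scrib-*+*ab* (-3.38, adjusted p = 0.0035) and was higher in Ras than in control discs (1.74, adjusted p = 0.005) and than in Ras+*bskDN* (1.02, adjusted p = 0.025). Against the control, 17.2% of all probe sets were called in *scrib-*+*ab*, 6.43% in Ras, 4.03% in Notch, 3.38% in Ras+*bskDN* and 5.71% in Notch+*bskDN*. Of 9 other structural genes of the cuticle, 5 were called in *scrib-*+*ab* against the control (1 higher and 4 lower), 4 in Ras, 3 in Notch, 1 in Ras+*bskDN* and 3 in Notch+*bskDN*. Among them *obst-E*, a chitin-binding protein that shapes the larval cuticle, was called in most comparisons. It lay between 4.64 and 5.80 in control and *ab* discs, between 8.45 and 9.47 in *scrib-*+*ab*, Ras and Notch discs, and between 4.98 and 5.74 in Ras+*bskDN*. In Notch+*bskDN* it was highest, at 10.09 to 10.12. Its effect of *bskDN* differed between the tumours (4.25, adjusted p = 0.00019). *Vajk2* was lower than in the control in *scrib-*+*ab* (-2.84), Ras (-3.08), Notch (-2.83), Ras+*bskDN* (-3.22) and Notch+*bskDN* (-3.17).

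Of 17 measured genes of chitin synthesis and assembly, *scrib-*+*ab* against the control called 4 higher and 6 lower, and Ras against Ras+*bskDN* called 1, the chitinase *Cht10* (-1.36, adjusted p = 0.014). Of all probe sets these comparisons called 17.2% and 4.22%. *Cht5*, a moulting chitinase, was lower than in the control in Ras (-3.50, adjusted p = 0.0039) and Notch (-2.63, adjusted p = 0.039). Among 10 genes of tanning and pigment, y (yellow) was above the floor only in Ras tumours (5.16 to 6.21) and was 3.46 higher there than in Ras+*bskDN* (adjusted p = 3.6e-05). Its relative *yellow-e* was high only in Notch tumours, at 8.42 to 8.69 against 3.09 to 3.64 in Notch+*bskDN* (log2 difference 5.25, adjusted p = 2.3e-06). Of 10 zona pellucida genes, which shape the apical matrix under the cuticle, *neo* (-1.68 and -2.74) was lower with JNK active in both Ras and Notch tumours.

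Genes of the ecdysone response, which times cuticle gene expression, were mostly lower where they were called in the tumours. The list holds regulators and also *Imp* genes, which ecdysone induces. The *Imp* genes called lower than in the control were *ImpE1*, *ImpE2*, *ImpE3* and *ImpL2* in *scrib-*+*ab* and *ImpE1* and *ImpE3* in Ras. In Notch they were *ImpE1*, *ImpE2* and *ImpE3*, and in Ras+*bskDN* *ImpE3*. Of 17 measured genes of the list, 8 were called lower and 1 higher in *scrib-*+*ab* than in the control. The counts were 9 and 1 in Ras and 8 and 1 in Notch, but 4 and 0 in Ras+*bskDN*. Of all probe sets, 17.2% were called in *scrib-*+*ab*, 6.43% in Ras, 4.03% in Notch and 3.38% in Ras+*bskDN*. In Notch+*bskDN*, where 5.71% of all probe sets were called, 0 of the 17 were called by limma, and 6 had an unadjusted p under 0.05. *Blimp-1*, a repressor in the timing of the ecdysone response, read 6.96 to 9.31 in control and 8.23 to 8.41 in Notch+*bskDN* discs, and 2.34 to 2.91 in *scrib-*+*ab*, 3.94 to 4.20 in Ras and 3.01 to 3.96 in Notch discs. *ftz-f1*, a nuclear receptor that acts after an ecdysone pulse, was higher than in the control in Ras (1.07, adjusted p = 0.014) and Notch (2.04, adjusted p = 0.00021). In *ab* discs 3 of the 17 were called higher and 3 lower, where 14.5% of all probe sets were called. Whether these genes bear on the cuticle protein genes was not tested.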

How the data were processed

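Affymetrix Drosophila 2.0 arrays were hybridised with cRNA from dissected discs. Per the study's methods the *ab* and *scrib-*+*ab* arrays were made from fewer disc pairs than the control arrays, and the disc numbers of the Ras and Notch groups are not given in the sources used here. Each probe set has a deposited log2 value that the authors obtained with GCRMA (version not given in the sources used here), and the labels do not say which arrays were normalized together. As the deposited table has log2 values already background-corrected, a difference from a group at the floor depends on where that floor lies. The 183 array control probe sets were left out, and no column lacked a sample. Names came from the platform annotation (1 symbol for 13647 probe sets, several for 402, none for 4720), and RefSeq (Release 6 plus ISO1 MT) was used for names and gene order. A gene is represented by its probe set with the highest mean.

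The tests used limma (version 3.58.1, lmFit and eBayes, under R 4.3.3) on group means. The *ab*, *scrib-*+*ab* and control arrays were fitted together (9 arrays), as were the 4 Ras and Notch groups (12 arrays) for the effects of *bskDN* and their interaction, and all 21 arrays for these 4 groups against the control. Each p is a limma p with Benjamini-Hochberg adjustment over 18769 probe sets, and a call needed an adjusted p under 0.05 and a log2 difference over 1. Because the labels do not name separate collections, p-values measure the spread between 3 arrays per group, which may be technical. Precision is limited by the number of arrays. The fit was tested on simulated data. The members, the related gene lists and the tests were chosen with earlier results of these data known. All called members are named, with the members of highest mean, their neighbours in a chromosomal cluster, and up to 4 called genes of each related list. The main fits, which gave the calls, did not pair arrays, and same-numbered arrays entered as blocks only as an alternative. The labels do not say that same-numbered arrays are pairs. Residual correlations of same-numbered arrays in Ras tumours and the control were 0.107, 0.126 and 0.178. Alternatives were a filter keeping probe sets at 5 log2 or more on 3 arrays, a trended robust eBayes, array quality weights, further quantile normalization, fits on the compared arrays alone, replicate blocks, and leaving out each array.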

Additional observations from a re-analysis of the deposited data

Results flagged for a closer look

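The results of 12 genes drew attention because the difference between a tumour and its *bskDN* counterpart was unlike in the Ras and the Notch tumours, by a test of that contrast itself. As the log2 difference in Ras minus that in Notch, the values were 5.64 for *Lcp65Af*, 5.45 for *Cpr49Ad*, 3.28 for *Cpr97Ea*, 3.03 for *Cpr49Ag*, 2.54 for *Cpr72Ea*, 2.16 for *Cpr64Ac* and 1.36 for *TwdlE*. They were -5.34 for *Cpr65Ec*, -2.13 for *Cpr72Eb*, -2.12 for *Cpr78E*, -1.99 for *Cpr51A* and -1.84 for *Cpr30B*.

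Probe sets that name several genes were kept out of the comparisons, and a pair of them had signal above the control. The probe set of *Lcp65Ag1* and *Lcp65Ag2*, which lie beside *Lcp65Af* in their cluster, had a mean of 6.39 in the control, 9.03 in *ab*, 12.14 in *scrib-*+*ab*, 11.48 in Ras, 10.16 in Notch and 9.56 in Notch+*bskDN*, and of 7.77 in Ras+*bskDN*. Its 3 *scrib-*+*ab* arrays read 11.88 to 12.46 and its control arrays 5.62 to 6.78. Signals of these neighbouring genes cannot be told apart on this probe set. A probe set of *Cpr57A* that also names the odorant-binding protein gene *Obp57d* had a mean of 4.73 in Ras tumours and 3.12 in the control. Its mean was 4.20 in *scrib-*+*ab* and 3.09 in Ras+*bskDN*. Another probe set that names the same genes stayed near the floor, with a mean of 2.20 in Ras tumours and 2.21 in the control.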

How the results depend on the processing

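No call changed direction under any alternative. Of the 105 results on single genes, 54 kept their call throughout and 51 lost it in at least 1 alternative. With the trended, robust eBayes, members called fell from 9 to 5 in *ab* against the control and from 8 to 4 in *scrib-*+*ab* against *ab*, where array weights gave 5. With only the arrays of the groups compared, calls fell from 14 to 7 in Ras against Ras+*bskDN*, and against the control from 12 to 6 in Ras, from 8 to 4 in Notch and from 9 to 4 in Ras+*bskDN*. The interaction uses the same 12 arrays in either case and has no such alternative. With the replicate block, calls were 7 instead of 14 in Ras against Ras+*bskDN*, 7 instead of 11 in Notch against Notch+*bskDN* and 5 instead of 12 in the interaction, but the numbers of these groups are not known to pair them. The block gave 7, 9 and 7 calls in the 3 comparisons of *ab* and *scrib-*+*ab*, and 11, 7, 6 and 10 against the control in Ras, Notch, Ras+*bskDN* and Notch+*bskDN*. In Ras against the control it changed only the call of *Cpr49Ac*. Leaving out 1 array gave 6 to 9 calls in *ab* against the control, 9 to 11 in *scrib-*+*ab* against the control and 7 to 9 in *scrib-*+*ab* against *ab*. It gave 11 to 13 in Ras against Ras+*bskDN*, 7 to 10 in Notch against Notch+*bskDN* (7 without Notch replicate 2) and 11 to 13 in the interaction. Against the control it gave 10 to 13 in Ras, 6 to 10 in Notch, 6 to 9 in Ras+*bskDN* and 12 to 13 in Notch+*bskDN*. Where leaving out an array leaves 2 in a group, the spread is pooled over the groups fitted. The low-value filter and further quantile normalization moved no total by over 1.5 times, but quantile normalization changed the split of calls in *ab* against the control from 7 higher and 2 lower to 3 and 3, with 5 of the 9 calls shared, and in Notch against Notch+*bskDN* from 7 and 4 to 5 and 5. Of all probe sets called, the share called higher went from 59.7% to 48.3% in *ab* against the control, from 42.6% to 53% in *scrib-*+*ab* against *ab*, from 27.6% to 41.3% in Notch+*bskDN* against the control and from 27% to 44% in the interaction. Members near the floor have no order among themselves.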

Other observations

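Single arrays also stood out among members that were not called. On *ab* replicate 3, *Cpr49Ag* read 7.85 and *Cpr47Eb* 4.60, while the other *ab* arrays read 2.18 and 2.23, and 2.30 and 2.60. *Cpr78Cb* and its neighbour *Cpr78Cc*, which read 2.17 on each control array, were above the floor on the 3 *ab* arrays, at 3.00, 3.72 and 4.97 and at 3.16, 2.85 and 3.28. The first *scrib-*+*ab* array had them at 3.06 and 4.0. The probe set that names both *Cpr65Ax1* and *Cpr65Ax2* read 7.59 on that *scrib-*+*ab* array and 2.18 on the other arrays of the group. *Cpr47Ee* was above the floor on the 3 Ras arrays, at 2.41, 3.14 and 3.61, and on 1 *scrib-*+*ab* array (3.26).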
